A study of Mus musculus with 6 samples.

Results

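The nuclear-encoded subunits of oxidative phosphorylation were followed in sorted mouse osteoblasts and cementoblasts. Members were all probes whose gene symbol in the platform annotation named a subunit of NADH dehydrogenase (complex I, Nduf), succinate dehydrogenase (complex II, Sdh), the cytochrome bc1 complex (complex III, Uqcr and Cyc1), cytochrome c oxidase (complex IV, Cox4 to Cox8) or ATP synthase (complex V, Atp5). This rule found 99 of 25697 probes, for 80 of 16593 genes. Complex I had 34 genes, complex II 3, complex III 9, complex IV 18 and complex V 16. The symbol rule also took in Ndufs5-ps, which is annotated as a pseudogene and whose probe may not tell it apart from Ndufs5. Sdha and Ndufa4l2 were not analysed here.

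The study profiled GFP-positive cells of OC-GFP mice, in which the fluorescent protein reports expression of osteocalcin, a protein of cells that form mineralised matrix. Osteoblasts were taken from the calvaria (the roof of the skull), and cementoblasts, which lay down the mineral layer of the tooth root, came from extracted molars. All mice were of the C57Bl6/J strain and of both sexes, aged between 5 and 7 weeks, and no other treatment or allele was named in the labels. Each group had 3 samples on Illumina bead arrays, and each sample pooled several mice (6, 6 and 6 for osteoblast replicates 1 to 3, and 7, 10 and 6 for cementoblast replicates 1 to 3). Whether any mouse gave cells to both groups is not stated in the labels, and the p-values measure the spread between these pools.

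Oxidative phosphorylation takes electrons from NADH through complex I or from succinate through complex II, passes them by ubiquinone to complex III and by cytochrome c to complex IV, where oxygen is reduced, and uses the proton gradient so built to drive ATP synthase. Each complex except complex II combines subunits encoded in the mitochondrial genome with the nuclear-encoded ones described here. Several subunits of complex IV exist as a general form and a form typical of heart and skeletal muscle, and osteoblasts are known to make ATP both by glycolysis and by respiration as they mature.

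Promoters of these genes are known from earlier work to be rich in letters bound by NRF1, by ETS factors such as GABP, and by YY1. RefSeq windows from 250 bases before to 50 bases after the start of transcription (build GRCm38.p6) were found for 64 of the 80 genes. Both strands were searched for the 10-base core of the NRF1 motif, for CCGGAAG (ETS) and for AAGATGGCG (YY1), and no runs of different motifs overlapped in these windows. A gene was counted when any of its windows held the letters (32851 windows for 27025 genes). These 27025 genes were not limited to those on the array or detected here. The NRF1 letters were found for 14 of 64 members (21.9%), against 5.19% of the 27025 genes. The ETS letters were found for 16 (25%, against 9.93%) and the YY1 letters for 7 (10.9%, against 1.64%). At least 1 of these motifs was found for 31 (48.4%, against 15.1%). CCAAT, a short motif common to many promoters, was found for 43.8% of members and 41.1% of all genes. A match is a run of letters and not a bound site. The stretches below run 5′ to 3′ on the coding strand and end at the base before the start, and capitals mark the NRF1 or ETS letters (CTTCCGG is the ETS run read on the other strand). All 6 genes lie on the minus strand of the chromosome. Ndufa10 is shown because it had the smallest p among the members, Ndufa8, Uqcr11 and Atp5g2 as 1 example each of complexes I, III and V with such letters, and Cox6a1 and Cox8b because they are a general and a muscle form of complex IV subunits.
Ndufa10, chr1:92473759-92473878: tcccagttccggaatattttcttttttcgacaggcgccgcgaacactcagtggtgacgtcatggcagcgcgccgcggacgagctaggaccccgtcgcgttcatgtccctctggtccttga
Ndufa8, chr2:36049339-36049458: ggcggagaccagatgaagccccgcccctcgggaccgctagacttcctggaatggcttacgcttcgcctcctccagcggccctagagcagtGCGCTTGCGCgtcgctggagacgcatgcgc
Uqcr11, chr10:80406822-80406941: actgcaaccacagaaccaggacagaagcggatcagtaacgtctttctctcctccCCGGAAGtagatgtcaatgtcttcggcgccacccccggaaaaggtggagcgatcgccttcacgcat
Cox6a1, chr5:115348959-115349128: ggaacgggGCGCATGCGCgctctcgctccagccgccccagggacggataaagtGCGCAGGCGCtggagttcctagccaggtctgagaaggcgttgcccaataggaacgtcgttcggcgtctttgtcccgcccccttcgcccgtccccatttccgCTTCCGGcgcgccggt
Cox8b, chr7:140900447-140900566: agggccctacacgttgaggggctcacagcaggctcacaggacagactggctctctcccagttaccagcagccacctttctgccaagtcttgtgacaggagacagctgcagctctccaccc
Atp5g2, chr15:102671048-102671167: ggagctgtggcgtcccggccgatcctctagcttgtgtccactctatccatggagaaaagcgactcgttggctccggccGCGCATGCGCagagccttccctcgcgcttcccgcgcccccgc
The Cox6a1 stretch held 2 runs of NRF1 letters and 1 of ETS letters. The Ndufa10 and Cox8b stretches held none of the 3 motifs.

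Values below are log2 bead signals after background correction and quantile normalization, and differences are cementoblast minus osteoblast. The arrays stood apart in ways the groups do not explain, so values on every array are given for the members that the results turn on. Osteoblast replicates 1, 2 and 3 showed 8480, 13347 and 12922 probes above background (detection p under 0.05), and the cementoblast arrays showed 9791, 10059 and 10040. Of 10 markers of the osteoblast lineage, 8 to 10 were detected on each array. Bglap, which encodes osteocalcin, read 14.07, 14.07 and 13.23 in osteoblasts and 13.21, 11.76 and 14.07 in cementoblasts. The shared 14.07 is a rank value from quantile normalization, close to the highest signal of 14.21 on every array. It does not show equal amounts of Bglap RNA. Over these 10 markers, 4 differences were above 0 and 6 below, and none passed the test. The collagen chain Col1a2 was the 1 marker of these 10 whose groups did not overlap, beside 11.3% of all genes. It read 13.11, 12.60 and 12.66 in osteoblasts against 10.87, 10.61 and 12.46. Of the late markers, Dmp1 was detected on 2 arrays of each group and was highest on cementoblast replicate 3 (7.11), Phex was detected on 3 osteoblast and 2 cementoblast arrays and was also highest there (8.14), and Mepe was detected on 2 osteoblast arrays and 1 cementoblast array. Markers of other cells varied between arrays of a group. The mean of 14 neutrophil markers was 6.14, 8.85 and 8.42 in osteoblasts and 10.32, 8.94 and 7.16 in cementoblasts, with 10 to 13 and 12 to 13 markers detected. The mean of 7 macrophage markers was 4.97, 9.42 and 7.87 in osteoblasts and 8.91, 7.82 and 4.85 in cementoblasts, and 3, 7, 7, 7, 7 and 2 of them were detected. Both lists were low on osteoblast replicate 1 and cementoblast replicate 3. Of 17 markers of skeletal muscle, osteoblast replicates 1 to 3 detected 4, 14 and 13 (list means 4.61, 5.71 and 5.26), and cementoblast replicates 1 to 3 detected 1, 2 and 0 (4.33, 4.36 and 4.23). Keratins and other markers of oral epithelium were detected in number on cementoblast replicates 1 and 2, 10 and 8 of 13, against 1 to 3 on the other arrays.

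**Figure D1:**
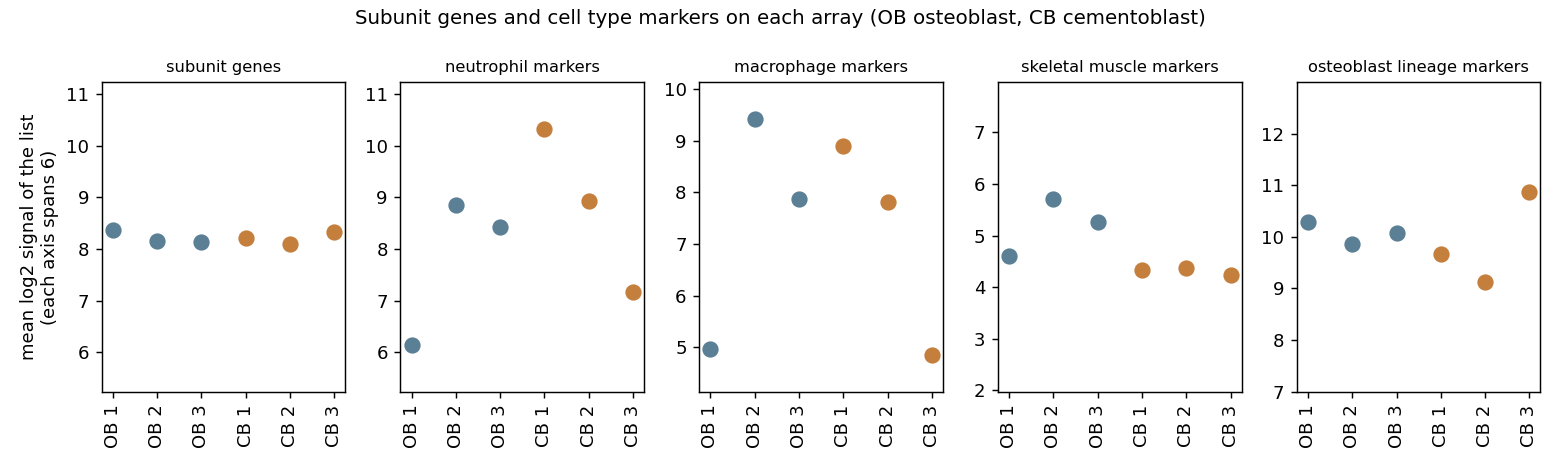
Mean log2 signal of the 69 tested subunit genes and of 4 marker lists on each array (OB osteoblast, CB cementoblast, replicates 1 to 3), each vertical axis spanning 6 log2 units. The subunit mean lay between 8.10 and 8.36 on all 6 arrays, while the macrophage mean ran from 4.85 to 9.42.

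No subunit gene differed between cementoblasts and osteoblasts by the test. Of the 80 genes, 69 passed the filter on detection (32, 3, 7, 12 and 15 of complexes I to V), and 0 of these 69 passed an adjusted p of 0.05 in limma, where 0.321% of the 8111 genes tested did. At an unadjusted p under 0.05 there was 1 member, Ndufa10 (1.45%, against 6.92% of all genes). The lowest adjusted p of a member was 0.601. In pools of sorted cells, fewer cells of a type and less RNA per cell cannot be told apart.

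After quantile normalization the subunit genes lay close to equal signal in both groups, with 31 of 69 above 0, 38 below, and a median difference of -0.01, beside -0.02 over all genes tested. By complex the median was -0.03 for complex I (11 above 0, 21 below), -0.36 for complex II (1 above, 2 below), 0.02 for complex III (4 above, 3 below), 0.01 for complex IV (6 above, 6 below) and 0.03 for complex V (9 above, 6 below). The difference was under 1.5-fold either way for 67 of 69 members. The 95% interval of the difference lay inside 2-fold for 59 of 69 members (85.5%), against 50.7% of all genes, and for 55 of the 60 members detected on all 6 arrays (91.7%, against 61.3%). Of the 10 members with a wider interval, the bounds farthest from 0 were 1.32 (Atp5a1) and -1.25 (Atp5o). Only these intervals bound a difference: a p over the threshold does not show equal signal.

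**Figure D2:**
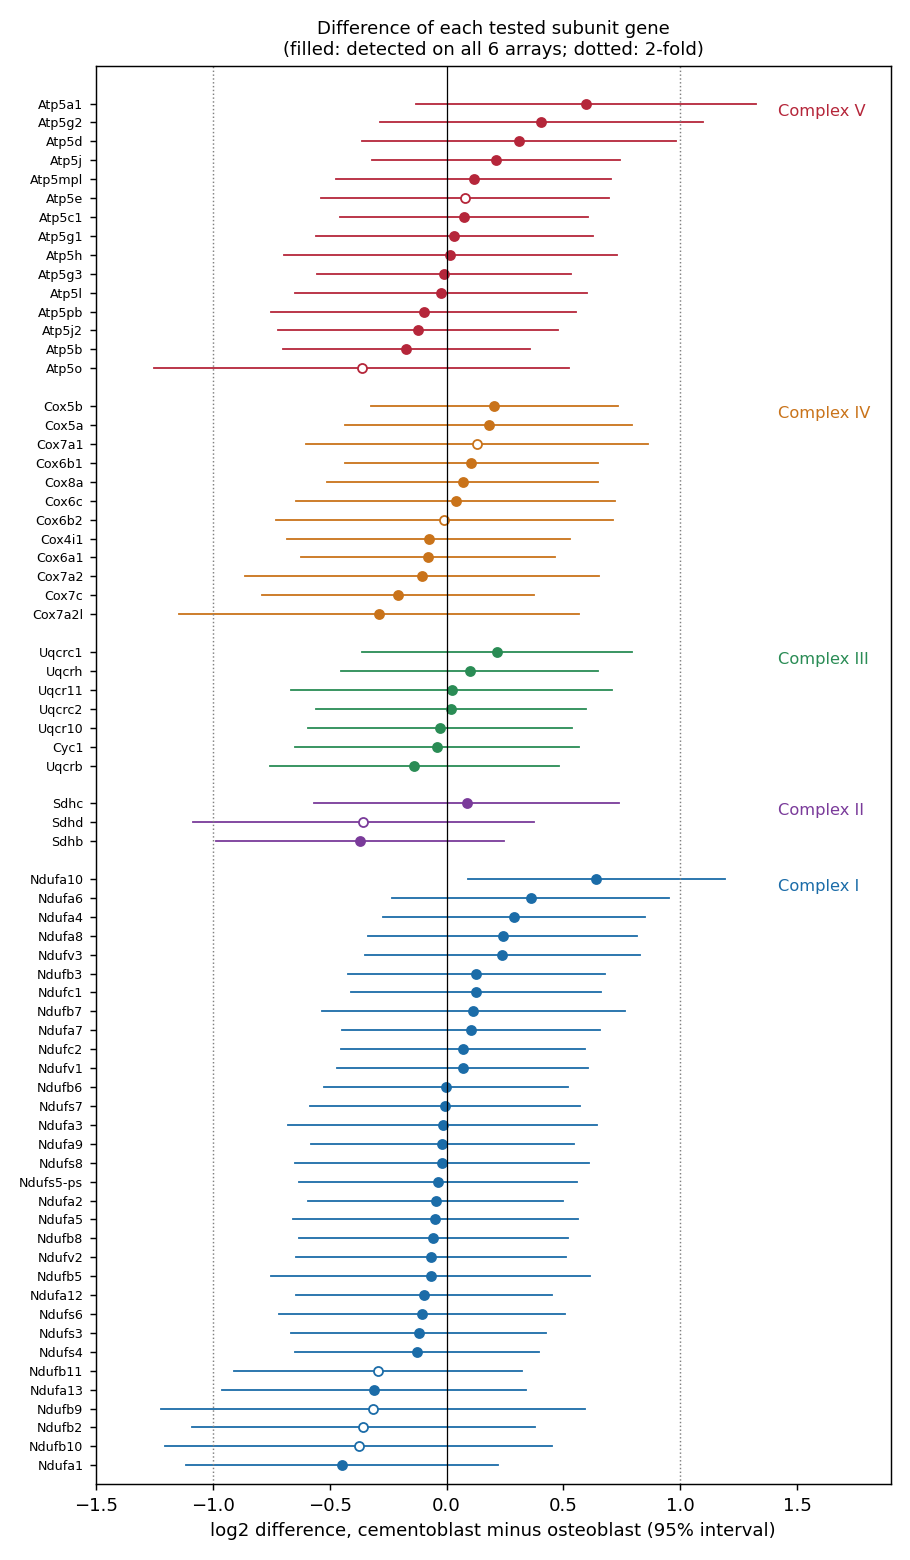
Log2 difference, cementoblast minus osteoblast, of each of the 69 tested subunit genes by complex, with its 95% interval from limma; filled points are genes detected on all 6 arrays, and dotted lines mark 2-fold. The interval of Ndufa10 alone leaves out 0, and 59 intervals stay between the dotted lines.

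The level of this median rested on the scaling between arrays. With each array scaled to its 75th percentile in place of quantile normalization, 56 of 69 members lay below 0 and their median was -0.42, while the median of the other genes was -0.07. With that percentile taken over probes detected on all arrays, the members' median was 0.06 and that of the other genes 0.41. Members lay close to other genes of like brightness: in each of the 4 ranges of mean log2 signal from 7 to 12, the members' median differed from that of the other genes by between -0.07 and 0.06 under every scaling tried. Between log2 8 and 9, where 24 members lay, it differed by 0.05 after quantile normalization and by 0.02 after scaling to the 75th percentile.

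In complex I, Ndufa10, an accessory subunit of the membrane arm, had the smallest p. It read 8.60, 8.43 and 8.26 in osteoblasts (replicates 1 to 3) and 9.21, 8.89 and 9.12 in cementoblasts. All 3 cementoblast arrays lay above all 3 osteoblast arrays. The means were 8.43 ± 0.17 and 9.07 ± 0.16 (SD, n = 3 each), a difference of 0.64 (SE 0.24, 95% interval 0.09 to 1.19) that did not pass the test (limma adjusted p = 0.601). Over 19 alternative settings the difference of Ndufa10 ran from 0.14 to 0.73, with adjusted p between 0.153 and 0.999. The groups did not overlap for 2 of 69 members, Ndufa10 and Atp5a1 (2.9%), both with cementoblasts above, where 11.3% of all genes had groups that did not overlap and 5.72% had them apart with cementoblasts above.

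Other members of complex I with larger differences lay within the spread of their arrays. Ndufa6, an accessory subunit of the LYR family, read 8.75, 8.76 and 9.02 in osteoblasts and 9.0, 9.07 and 9.53 in cementoblasts (difference 0.36, adjusted p = 0.919). Ndufa4, named for complex I and since placed in complex IV, read 9.55, 9.23 and 9.43 against 9.93, 9.55 and 9.60 (0.29, adjusted p = 0.946). For both genes the highest osteoblast array reached the lowest cementoblast array. Ndufa1, a small accessory subunit of the membrane arm needed for assembly, had the lowest difference, -0.45 (adjusted p = 0.89). It read 10.31, 9.42 and 9.72 in osteoblasts and 9.32, 9.33 and 9.46 in cementoblasts. Osteoblast replicate 1 was the high array for Ndufa1, and osteoblast replicate 2 lay inside the cementoblast range. Ndufa13, also called GRIM-19, had a mean of 10.59 ± 0.36 in osteoblasts and 10.28 ± 0.24 in cementoblasts (SD, n = 3 each), and cementoblast replicate 3, at 10.56, lay above osteoblast replicates 2 and 3. Its difference was -0.31 (limma adjusted p = 0.949). Ndufs4, an accessory subunit whose loss in mice gives a disease like Leigh syndrome, read 8.07, 8.34 and 8.28 against 8.13, 8.07 and 8.12 (-0.13, adjusted p = 0.982). Of the subunits that carry the flavin or iron-sulphur clusters, Ndufv1 had a difference of 0.07, Ndufv2 of -0.06, Ndufs7 of -0.01 and Ndufs8 of -0.02, while Ndufs1 was detected on no array and was not tested. Scaled to the 75th percentile, these differences were -0.43 for Ndufv1, -0.56 for Ndufv2, -0.51 for Ndufs7 and -0.49 for Ndufs8. The dim accessory subunits Ndufb2, Ndufb9, Ndufb10 and Ndufb11, picked out after their values were seen, had differences of -0.36, -0.31, -0.38 and -0.29, which did not pass, and each was missing from the detected probes of at least 1 array. Ndufb2 read 5.52, 4.82 and 4.52 in osteoblasts and 4.36, 4.69 and 4.74 in cementoblasts, and Ndufb11 read 5.18, 4.81 and 4.55 against 4.78, 4.39 and 4.50. Each osteoblast array detected Ndufb2 and Ndufb11 and none of the cementoblast arrays did, so they entered the test through the group in which they read higher, and their log2 signals overlapped. The lowest signal among detected probes differed between arrays, from 4.37 and 4.40 on osteoblast replicates 2 and 3 to 5.11 on osteoblast replicate 1, and no fold is given for either gene. The sign of all 4 genes turned with the scaling: at the 75th percentile the differences were 0.60 for Ndufb2, 0.36 for Ndufb9, 0.34 for Ndufb10 and 0.59 for Ndufb11, and with the percentile over probes detected on all arrays they were 1.08, 0.84, 0.82 and 1.07.

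Of complex II, Sdhb, the iron-sulphur subunit, read 7.58, 7.32 and 6.94 in osteoblasts and 6.97, 6.69 and 7.07 in cementoblasts. The ranges of Sdhb overlapped, since osteoblast replicate 3 lay below cementoblast replicates 1 and 3 (difference -0.37, adjusted p = 0.923). The membrane anchor Sdhc read 8.53, 7.88 and 7.81 against 8.01, 8.12 and 8.34 (0.09, adjusted p = 0.997). The other anchor, Sdhd, was detected on 2 osteoblast arrays and 1 cementoblast array, so its difference of -0.36 (adjusted p = 0.948) was partly one between background readings. The median of complex II thus rested on 3 genes, and with scaling to the 75th percentile over probes detected on all arrays it was 0.12.

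In complex III, Uqcrc1, a core subunit, read 8.55, 8.05 and 8.03 in osteoblasts and 8.50, 8.42 and 8.36 in cementoblasts (difference 0.22, adjusted p = 0.967). Cyc1, the cytochrome c1 that hands electrons to cytochrome c, read 7.68, 7.49 and 7.40 against 7.37, 7.23 and 7.85 (-0.04, adjusted p = 0.997). The groups overlapped for both, as for all 7 members of complex III tested. Uqcrb, a small subunit near the ubiquinone site, had the lowest difference of complex III, -0.14, and Uqcrh, the acidic hinge protein, and Uqcr11 and Uqcr10, small subunits, stood at 0.10, 0.02 and -0.03. Uqcrfs1, the Rieske iron-sulphur protein, was not above background on any array and was not tested.

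In complex IV, the differences of the 12 genes tested lay between -0.29 and 0.20, none past the test. Cox5b, which binds zinc, read 9.72, 9.76 and 9.74 in osteoblasts and 10.11, 9.98 and 9.75 in cementoblasts (difference 0.20, adjusted p = 0.964). Osteoblast replicate 2 of Cox5b reached just above cementoblast replicate 3, so the groups overlapped. Cox5a stood at 0.18, Cox6b1 at 0.11, Cox4i1 at -0.08 and Cox7c at -0.21. Cox7a2l, which joins complexes III and IV into a supercomplex and of which C57BL/6 mice are known to carry a shortened form, had the lowest difference of complex IV, -0.29 (adjusted p = 0.973). It read 7.61, 8.52 and 8.68 in osteoblasts and 8.46, 7.85 and 7.63 in cementoblasts. Osteoblast replicate 1 and cementoblast replicate 3 were the lowest arrays for Cox7a2l, as they were for the macrophage markers (4.97 and 4.85). The part of macrophage RNA in the level of Cox7a2l was not tested.

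In complex V, Atp5a1, the alpha subunit of the catalytic head, read 6.58, 6.46 and 5.67 in osteoblasts and 7.07, 6.61 and 6.81 in cementoblasts. Every cementoblast array of Atp5a1 lay above every osteoblast array, though 6.61 and 6.58 lay close, and osteoblast replicate 3 was low. The difference of 0.60 (SE 0.31) did not pass the test (limma adjusted p = 0.828), and it kept its sign under all 19 alternatives. Atp5b, the beta subunit that carries the catalytic sites, read 11.57, 11.23 and 11.43 against 11.24, 11.27 and 11.20 (-0.17, adjusted p = 0.974). The partner subunits alpha and beta thus had differences of opposite sign in the main setting, neither of which passed, and the difference between them was not tested. The sign of Atp5b turned in 2 alternatives. With the submitters' values Atp5b stood at 0.11 and Atp5a1 at 0.34. With the 75th percentile over probes detected on all arrays they stood at 0.08 and 0.83. Atp5d, the delta subunit of the central stalk, stood at 0.31 and Atp5c1, the gamma subunit, at 0.07. Of the stator, Atp5pb (subunit b) stood at -0.10 and Atp5o (OSCP), detected on 2 osteoblast arrays and 1 cementoblast array, at -0.36. Atp5j2, a small membrane subunit (f), stood at -0.12.

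Atp5g1, Atp5g2 and Atp5g3 encode the same mature subunit c of the rotor ring with different targeting peptides. All 3 genes were detected on all 6 arrays. Atp5g2 read 8.69, 7.97 and 7.91 in osteoblasts and 8.45, 8.46 and 8.88 in cementoblasts, and osteoblast replicate 1 overlapped the cementoblasts (difference 0.41, adjusted p = 0.929). Atp5g1 and Atp5g3 stood at 0.03 and -0.01.

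The tissue-typical forms of complex IV subunits were near background. Cox6a2, the heart and muscle form of subunit 6a, read 4.14, 5.62 and 4.91 in osteoblasts and 4.71, 4.22 and 4.41 in cementoblasts, and was detected on osteoblast replicates 2 and 3 alone. Cox8b, the muscle form of subunit 8, read 4.29, 4.66 and 4.90 against 4.12, 4.21 and 4.46, and was likewise detected on osteoblast replicates 2 and 3 alone. These were the arrays on which 14 and 13 of 17 markers of skeletal muscle were detected. The part of muscle RNA in these signals was not tested. These arrays also detected the dimmest probes, down to 4.37 and 4.40. The lowest signal among detected probes was 5.11 on osteoblast replicate 1 and 4.75 on cementoblast replicates 2 and 3. Cox8b at 4.66 lay under the lowest detected signal of osteoblast replicate 1 and each cementoblast array, while Cox6a2 at 5.62 did not. Cox7b was detected on osteoblast replicates 2 and 3 alone (4.49 and 4.45), and not at 4.48 on cementoblast replicate 1. Detection thus compares such dim signals poorly. Cox7a1, the third muscle form, was detected on osteoblast replicates 2 and 3 (5.17 and 5.18) and also on cementoblast replicates 2 and 3 (5.13 and 5.09), where 2 and 0 muscle markers were. Cox4i2, a form typical of lung, was above background on cementoblast replicates 2 and 3 alone (5.52 and 4.88). Cox6b2, typical of testis, was detected on osteoblast replicates 2 and 3 and cementoblast replicate 3, and Cox8c, also of testis, on none. The general forms Cox4i1, Cox6a1, Cox6b1, Cox7a2 and Cox8a were detected on all 6 arrays. By the brightest probe of each, the differences lay between -0.10 (Cox7a2) and 0.11 (Cox6b1), none past the test. Second kept probes, also detected on all 6 arrays, gave -0.35 for Cox6a1 and 0.18 for Cox6b1.

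**Figure D3:**
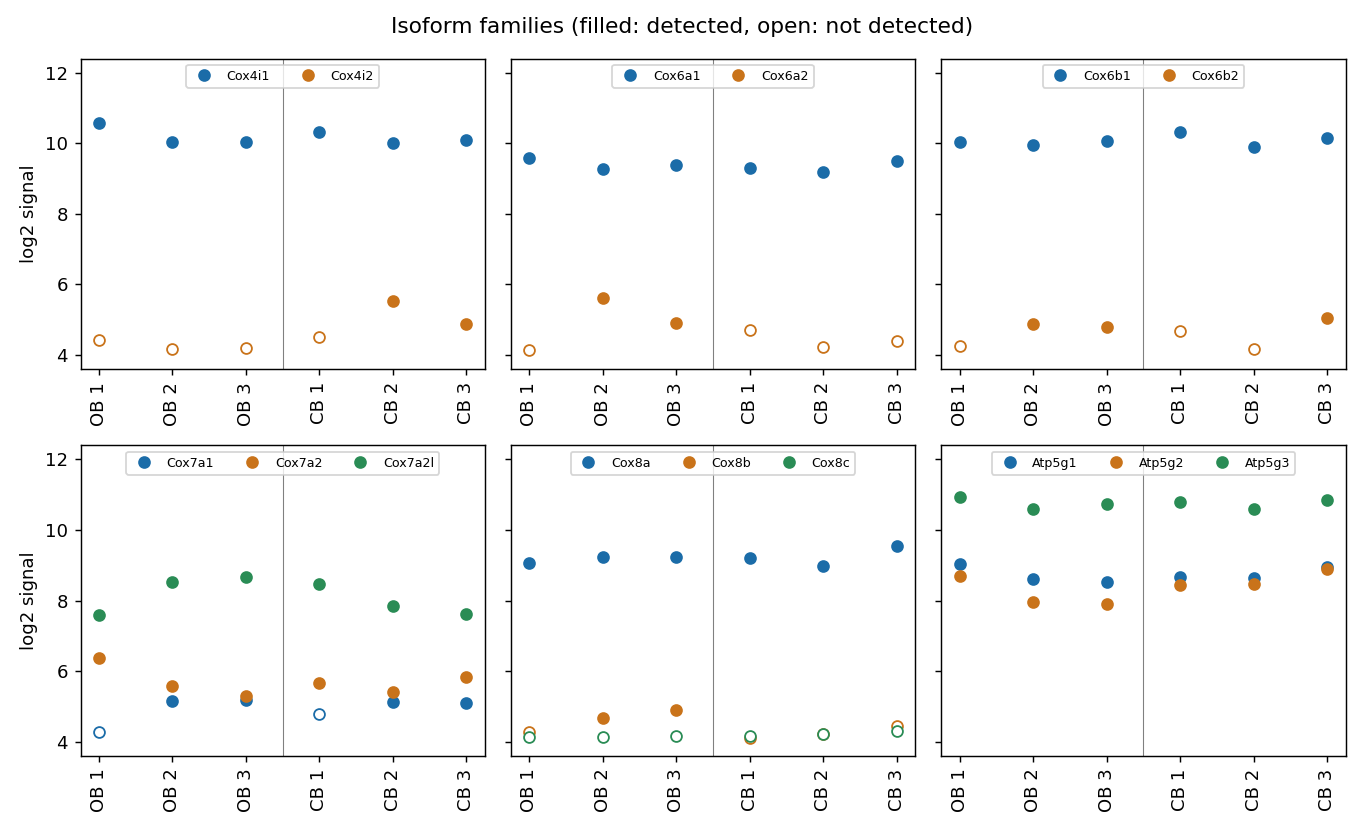
Log2 signal of the members of 6 isoform families on each array (OB osteoblast, CB cementoblast, replicates 1 to 3), with filled points where the probe was detected and open points where it was not; levels of different genes come from different probes and are not to be ranked. Cox6a2 and Cox8b are filled on OB 2 and OB 3 alone, and the general forms are filled on all arrays.

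In all, 11 members were not tested, of which Ndufs1, Uqcrfs1, Uqcrq, Cox7b2, Cox8c and Atp5k were not above background on any array, Ndufb4 was on 1, and Cox4i2, Cox6a2, Cox7b and Cox8b were on 2. The signal of these probes is near background and does not show that the gene is silent. For 11 members more than 1 probe was kept, and in 3 the probes differed in sign. The 2 probes of Ndufc1 gave 0.13 and -0.46, and the second of them read below the osteoblasts on every cementoblast array, at 6.91, 7.07 and 7.00 against 8.01, 7.16 and 7.19. The probes of Ndufa5 gave -0.05 and 0.04, and those of Atp5j, coupling factor 6, gave 0.21 and -0.03.

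Arrays of a group differed from each other for many members at once. Osteoblast replicate 1 had the highest signal of the 6 arrays for 32 of 69 members (46.4%, against 23.9% of all genes) and cementoblast replicate 3 for 18 (26.1%, against 24.9%). Cementoblast replicate 2 had the lowest for 20 (29%, against 20.5%). Averaged over the 69 members, the deviation from each gene's mean was 0.15, -0.07 and -0.08 for osteoblast replicates 1 to 3, and 0.00, -0.12 and 0.12 for cementoblast replicates 1 to 3. The highest arrays were osteoblast replicate 1 and cementoblast replicate 3. Each had the lowest neutrophil and macrophage marker means of its group (6.14 and 4.97, 7.16 and 4.85). Each also had the lowest endothelial and erythroid marker means of its group (4.81 and 5.16, 4.45 and 6.54). The osteoblast lineage mean was highest of its group on both (10.29 and 10.86). The part of the mix of cells in these subunit levels was not tested. On osteoblast replicate 1 and cementoblast replicate 3 the mean deviation was 0.22 and 0.14 for complex I, 0.38 and 0.18 for complex II, 0.14 and 0.09 for complex III and 0.09 and 0.15 for complex V, while it was -0.02 and 0.03 for complex IV. Within the osteoblasts, replicate 1 was highest for 24 of 32 genes of complex I, 2 of 3 of complex II, 4 of 7 of complex III, 4 of 12 of complex IV and 11 of 15 of complex V, beside 41.5% of all genes. Within the cementoblasts, replicate 3 was highest for 23 of 32, 3 of 3, 4 of 7, 5 of 12 and 7 of 15 genes of complexes I to V, beside 47.3% of all genes. The level of osteoblast replicate 1 rested on the scaling: scaled to the 75th percentile, the members' mean deviation was -0.06 there, with 0.28 on osteoblast replicate 2 and 0.22 on osteoblast replicate 3, while cementoblast replicates 1 to 3 had -0.31, -0.36 and 0.23.

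**Figure D4:**
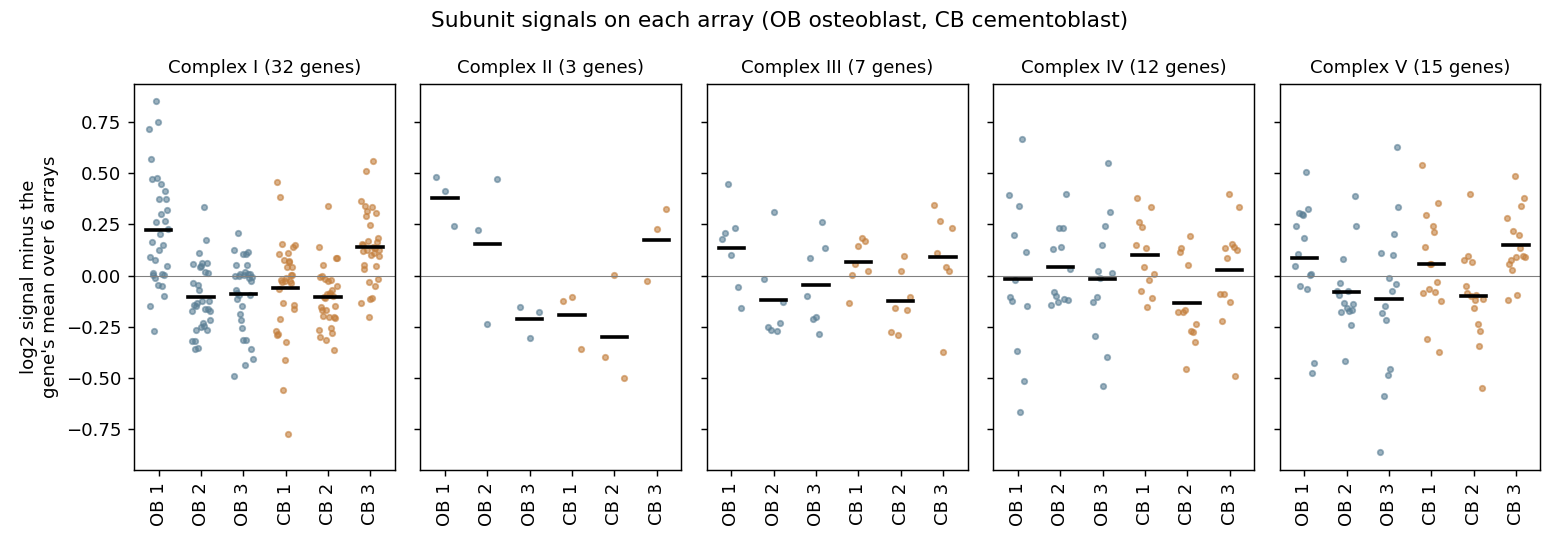
Log2 signal minus the gene's mean over 6 arrays for each tested subunit gene (points) on each array (OB osteoblast, CB cementoblast, replicates 1 to 3), by complex, with the mean as a bar. The bars of complexes I, II, III and V lie above 0 on OB 1 and CB 3, and the points of the groups overlap in every complex.

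From a mean log2 signal of 7 upwards, the subunit genes varied less over the 6 arrays than other genes of like brightness. Among genes detected on all 6 arrays the median SD was 0.226 for the 60 members and 0.335 for the other 4946 genes. By mean log2 signal, it was 0.238 against 0.317 from 7 to 8, 0.226 against 0.341 from 8 to 9, 0.194 against 0.349 from 9 to 10, and 0.187 against 0.365 from 10 to 12. In these ranges 7 of 8, 21 of 24, 15 of 16 and 8 of 8 members lay below the other genes' median. Below 7, with 4 members, the medians were 0.344 and 0.339. Scaled to the 75th percentile, the medians over all brightness were equal (0.434 and 0.434), as they were without background correction (0.152 and 0.152). With the submitters' values they were 0.222 and 0.244. Within the ranges from 7 upwards the members again lay lower in each of these settings. From 8 to 9 they stood at 0.444 against 0.591 after scaling to the 75th percentile. The steadiest members were Ndufc2 and Ndufb6, membrane-arm subunits of complex I with an SD of 0.10 each, and Ndufs4 with 0.12. Ndufb6 read 8.97, 8.71 and 8.84 in osteoblasts and 8.83, 8.75 and 8.94 in cementoblasts. These values are of its brightest probe. A second kept probe of Ndufb6, detected on 2 osteoblast arrays and 1 cementoblast array, was dim and less steady. It read 4.84, 5.44 and 5.12 against 4.45, 4.17 and 5.70. The widest were Ndufb9 (0.53) and Atp5o (0.52), neither detected on all 6 arrays, and Cox7a2l (0.48).

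**Figure D5:**
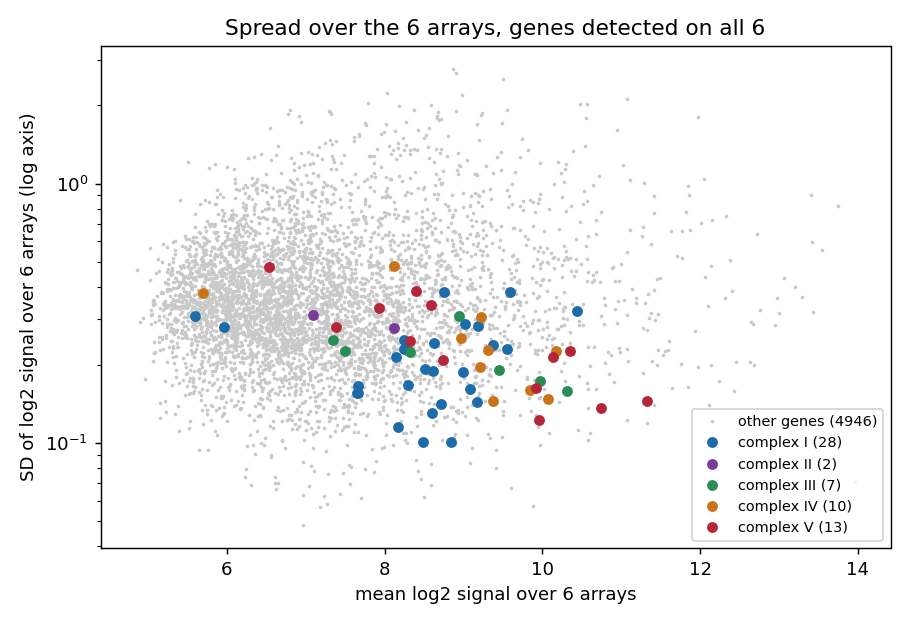
SD of log2 signal over the 6 arrays (log axis) against the mean log2 signal, for genes detected on all 6 arrays, with subunit genes in colour by complex and the other 4946 genes in grey. Most coloured points above a mean of 7 lie in the lower part of the grey cloud.

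Other genes of the pathway gave no call either. Of 40 assembly factors listed, 29 were tested, 11 above 0 and 18 below with a median of -0.03, and 0 passed the test. Those with the smallest p were Cox11, which delivers copper to complex IV (-0.61, adjusted p = 0.885), Cox18 (-0.37) and Uqcc2 (-0.45), an assembly factor of complex III. Of 16 electron carriers and ATP handling genes tested, 0 passed and 2 had an unadjusted p under 0.05, beside 6.92% of all genes. Cycs, which encodes cytochrome c, read 4.22, 4.44 and 4.41 in osteoblasts and 5.41, 4.89 and 4.93 in cementoblasts, close to background with every cementoblast array above the osteoblast arrays (difference 0.72, adjusted p = 0.554). Ckmt1, the mitochondrial creatine kinase of tissues other than muscle, read 4.21, 4.37 and 4.45 against 7.15, 7.40 and 4.44 (1.99, adjusted p = 0.576). Ckmt1 was high on cementoblast replicates 1 and 2 alone, the arrays with 10 and 8 of 13 epithelial markers detected, and their part in it was not tested. Etfdh, which passes electrons from fatty acid and amino acid oxidation to ubiquinone, was the other gene of that list besides Cycs whose groups did not overlap. These were 2 of 16 genes, where 11.3% of all genes had groups that did not overlap. It read 6.43, 6.30 and 6.52 in osteoblasts and 5.56, 5.89 and 6.18 in cementoblasts, lower on every cementoblast array (difference -0.54, adjusted p = 0.761). Of 11 regulators of mitochondrial biogenesis tested, 4 were above 0 and 7 below, and 0 passed, among them Tfam, the mitochondrial transcription factor (0.07), and Nrf1 (-0.05). Polg2, the accessory subunit of the mitochondrial DNA polymerase, had the smallest p of that list (-0.67, adjusted p = 0.738). It was the 1 gene of these 11 whose groups did not overlap. Of 15 genes of the tricarboxylic acid cycle tested, 7 were above 0 and 8 below, and 0 passed. Citrate synthase (Cs) stood at 0.03, and Pdhb, a subunit of pyruvate dehydrogenase, and Suclg1, a subunit of succinyl-CoA synthetase, at -0.43 and -0.38. Mitochondrially encoded subunits were not analysed here.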

How the data were processed

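The deposited non-normalized table gives each probe's signal as a linear intensity with, per the file headers, its detection p-value. A second deposited table holds intensity values normalized by the submitters. The submitters' processing notes name lumi, whose version is not given in the sources used here. From the deposited intensities, log2 values were computed with neqc in limma 3.58.1 (R 4.3.3), which corrects background, adds an offset of 16 and normalizes by quantiles. Probes were kept when their detection p was under 0.05 on 3 or more of the 6 arrays, and the brightest stood for a gene, leaving 8111 genes. Columns were matched to samples by title and, for replicate 3 of each group, by the description's number.

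Groups of 3 were compared by limma's moderated test (lmFit, eBayes), and p-values were adjusted over all genes by Benjamini-Hochberg. The script was tested on simulated data. The members, the lists and the rule for named genes (extremes by complex, isoform families, complex II, spread, groups that do not overlap) were chosen with earlier results of these data known. Alternatives changed the normalization, background, filter, probe choice, variance, array weights, block and arrays used. The number of arrays limits the precision.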

Additional observations from a re-analysis of the deposited data

How the results depend on the processing

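The count of subunit genes past the test was 0 under all 19 alternatives, with 0 to 3 members at an unadjusted p under 0.05 and a lowest adjusted p of 0.104. The members' median kept within -0.05 and 0.08 when each array was left out, and moved to -0.42 with scaling to the 75th percentile, which gave complexes I, III, IV and V medians of -0.46, -0.49, -0.39 and -0.34. Counts over all genes, 12 higher and 14 lower in the main setting, depended on the setting. They were 5 and 9 with the submitters' values, 5 and 10 without background correction, 0 and 2 with scaling to the 75th percentile, 1 and 5 for probes detected on all 6 arrays, 4 and 4 with no filter, 13 and 20 with all kept probes, 17 and 23 with trend and robust variance, and 111 and 88 with array weights. Leaving out each array gave 0 to 102 higher and 0 to 69 lower: 102 and 69 without cementoblast replicate 3, 0 and 0 without osteoblast replicate 3 (367 genes at an unadjusted p under 0.05) or cementoblast replicate 2 (388 genes), 2 and 1 without osteoblast replicate 2, 9 and 1 without cementoblast replicate 1, and 5 and 10 without osteoblast replicate 1. The number in the titles, used as random block, gave 38 and 36. In the titles, replicate 2 of both groups shares a number, and so does replicate 3, while replicate 1 does not. The labels do not say whether a shared number marks shared mice or days. Deviations from the group mean correlated at -0.356, 0.362 and 0.0901 between arrays of replicates 1, 2 and 3. These few correlations cannot decide whether samples are paired, since they hold any other difference between arrays too. The replicate block gave 0 and 0 (568 genes at an unadjusted p under 0.05). Of 2 alternatives added after seeing the data, scaling to the 75th percentile over probes detected on all arrays gave 0 and 0 (414 genes at an unadjusted p under 0.05), and leaving out osteoblast replicate 1 and cementoblast replicate 3 together gave 120 and 99, with a members' median of 0.04. Of 41 tested genes chosen by the rule for named genes, 8 kept their sign under all alternatives and 33 changed it under at least 1, none of them called. Signals near log2 4 lie at background and limit what can be seen of the dim members.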

Other observations

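Members with and without the NRF1, ETS or YY1 letters in their promoter window had like differences. The 29 tested members with at least 1 of these motifs had a median difference of -0.002 and a median SD over the 6 arrays of 0.226, and the 29 without had -0.029 and 0.254. The 7 members with the YY1 letters had a median SD of 0.168, against 0.242 for the 51 without. These sets were not matched for brightness. All 7 were detected on all 6 arrays, with mean log2 signals from 8.17 (Ndufs4) to 10.35 (Atp5j2). The 51 included dim members such as Ndufb2 and Atp5o, which were not detected on all arrays. These are descriptions of the members with a window, with no test.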
